A study of Mus musculus with 6 samples.

Results

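Closely spaced target peaks are AGO2 peaks that had another peak on the same chromosome and strand with its nearest edge 200 nt or less away. They were chosen by peak position alone, and 632 of the 3292 listed peaks (19.2%, 95% exact Clopper-Pearson interval 17.9 to 20.6) met this rule. Chains of such neighbours formed 262 groups, and the remaining 2660 peaks are referred to as single peaks. The intervals printed for shares and medians cover counting error only, since peaks of a gene are not independent.

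The peaks were mapped in mouse embryonic stem cells with the Spy3-Ago2 genotype, in which AGO2 carries a Spy3 tag. They were cultured in serum and LIF, the cytokine used to hold them in the undifferentiated state. RNA held by the tagged AGO2 was isolated through HaloTag-SpyCatcher3 on a resin and cut from a gel. The series holds 2 target libraries and 2 miRNA libraries from this pull-down and 2 input libraries of whole lysate. All 6 carry the same genotype, and no library of cells without the tag was analysed here. The peak list is a single list with no value per library, and its score is 0 for every peak. The labelled cell type was checked on the miRNA libraries, which held 12562727 and 22908172 counts. miRNAs named miR-290 to miR-295, typical of mouse embryonic stem cells, made up 39.4% and 38.8% of them, and let-7 miRNAs, which rise on differentiation, 0.0193% and 0.0160%.

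AGO2 carries a miRNA and is guided by it to partly complementary sites in messenger RNA, mostly through pairing of the seed, bases 2 to 8 of the miRNA. A messenger RNA can hold several such sites, of 1 miRNA or of different ones. Sites that lie near each other on an RNA are known to repress it more strongly together than their separate effects would give, and AGO2 partner proteins of the TNRC6 family can bind several AGO2 molecules. Closely spaced peaks are a place where such neighbouring sites could be looked for. Midpoints of neighbouring peaks were at least 45.5 nt apart, so sites nearer to each other than that could share a single peak. A peak list alone does not show whether neighbouring peaks were occupied on the same RNA molecule.

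The guides themselves are known from the miRNA libraries. The 5 most abundant are shown with their RefSeq sequences, the seed in capitals, because they were the most frequent single guides held by AGO2 in these cells. In the order shown, they held 23.8% ± 0.40, 7.24% ± 0.30, 6.36% ± 0.97, 4.74% ± 0.14 and 4.67% ± 0.62 of the counts (mean ± SD, n = 2).
miR-290a-5p: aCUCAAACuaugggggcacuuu
miR-92a-3p: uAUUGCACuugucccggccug
miR-182-5p: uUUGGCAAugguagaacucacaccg
miR-19b-3p: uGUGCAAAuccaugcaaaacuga
miR-16-5p: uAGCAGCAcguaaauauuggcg
The seeds of these 5 guides differ from each other, and the guides are 21 to 25 nt long. Which of them, if any, matches a given peak was not analysed here.

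The bases under a closely spaced peak could be read for only 2 of the 632 peaks. These overlap the RefSeq windows around the start of their own gene, 250 bases before to 50 bases after it, on GRCm38.p6, the assembly also named mm10. Both are at the 5′ end of a gene and so do not stand for the rest. They are printed to show what an unusual upstream member of the class looks like.
H3c11, minus strand, chr13:21783351-21783394: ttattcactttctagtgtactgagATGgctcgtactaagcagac
Rpl10a, plus strand, chr17:28328584-28328614: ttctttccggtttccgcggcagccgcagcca
H3c11 encodes a histone H3, and its peak began at base 4 of the transcript. The capitals mark the ATG in the peak, which opens the histone reading frame. The partner peak, 18 nt wide, followed after a gap of 24 nt, so the group (21783309 to 21783394) lay on the first part of the gene. Histone H3 genes are near-identical copies, and reads from them may have been divided among copies. Rpl10a encodes a ribosomal protein. Its peak was 36 nt wide, of which 31 nt lay in the window. It began at base 20 counted from the RefSeq start site of that window, at 28328565. The RefSeq span of the gene begins farther upstream, at 28328471. The neighbours of the peak followed after gaps of 196 and 116 nt.

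The gaps between neighbouring peaks stopped at a sharp lower bound. Among all 3249 neighbours on a strand no gap was below 21 nt, and 21 nt was also the most frequent gap, seen 25 times. Of the 370 gaps of 200 nt or less, 147 (39.7%) were 21 to 30 nt, 56 were 31 to 40 nt and 25 were 41 to 50 nt. The number of neighbours per nt of gap was 14.7 from 21 to 30 nt, 5.60 from 31 to 40 nt and 2.5 from 41 to 50 nt. It was 1.28 from 51 to 100 nt, 0.740 from 101 to 150 nt, and 0.820 from 151 to 200 nt. Outside the limit it was 0.760 from 201 to 250 nt and 0.480 from 301 to 350 nt. Gaps therefore piled up just above the lower bound. Farther out the density was lower, at 0.780 over 101 to 200 nt and 0.560 over 201 to 400 nt. Next to the limit, 20 gaps were 180 to 200 nt (0.952 per nt) and 13 were 201 to 220 nt (0.650 per nt). These counts are small and the classes differ slightly in width. The median gap was 36 nt (95% interval 34 to 41, quartiles 25 and 90). Measured between midpoints the neighbours were farther apart, with a median of 119 nt and a range of 45.5 to 370 nt.

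**Figure D1:**
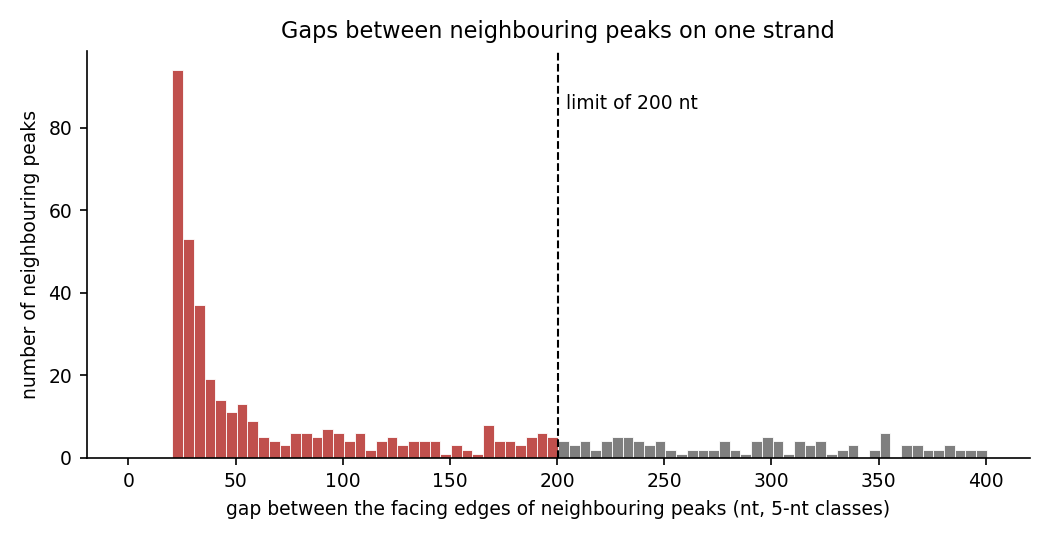
Number of neighbouring peaks on a strand (y axis) by the gap between their facing edges in nt (x axis, 5-nt classes up to 400 nt). Red bars are gaps of 200 nt or less and grey bars longer ones. No gap was under 21 nt, and 147 neighbours had a gap of 21 to 30 nt, against 38 over the whole of 201 to 250 nt.

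The deposited peaks are numbered along each strand, and numbers reach 30438, so most numbers are not in the list. In 315 of the 370 close neighbours (85.1%) the numbers were consecutive, in 48 exactly 1 number was skipped, and in 7 exactly 2 were skipped. Among the 2879 neighbours farther apart, 282 (9.80%) had consecutive numbers. Where 1 number was skipped the smallest gap was 62 nt, where 2 were skipped it was 132 nt, and where 3 were skipped it was 201 nt. A number skipped inside a group may stand for a further peak that the list does not give. What sets the lower bound was not tested, and no source used here gives the method of peak calling. Separate sites and a single bound region divided in peak calling therefore cannot be told apart in these groups, and this holds for every gap and group size given here.

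The smallest gap of 21 nt occurred 25 times, and the genes named for it are the first of these by symbol. One lay in Ago2, which encodes the pulled-down protein itself, between peaks of 75 and 28 nt on chromosome 15 (73137992 to 73138115). Akap1, a gene for a mitochondrial kinase anchor that also binds RNA, had consecutive gaps of 21 nt between peaks of 220, 75 and 122 nt. Akap12, a gene for a kinase scaffold, and the receptor kinase gene Epha2 had a gap of 21 nt as well. At the other end, the gaps just inside the limit were 196 nt in Rpl10a and in Slc7a3, 197 nt in Foxp4 and Stip1, and 199 nt in Emc4. Just outside it were 201 nt in Akap12, 201 nt in 2 places of Slc12a7, 203 nt in Cyb5r1 and 207 nt in Ago1. Gaps were measured on the genome. Exons were not used here, so whether a gap spans a short intron is not known.

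Most groups were pairs, 200 of 262 (76.3%, interval 70.7 to 81.3). There were 37 groups of 3 peaks, 14 of 4, 7 of 5, 2 of 7 and 2 of 8, so that the 62 groups of 3 or more held 232 peaks. The median gap was 35.5 nt (32 to 44) in pairs and 36 nt (33 to 45) in larger groups. Gaps of 21 to 30 nt made up 41.5% of the gaps in pairs and 37.6% of those in larger groups. These medians lay within each other's intervals. End to end, pairs had a median length of 182 nt (quartiles 131.75 and 256.75) and groups of 3 or more 409 nt (295 to 541.75). Peaks covered a median of 72.9% of the length of a pair and 63.8% of a larger group. When the gaps of 30 nt or less were joined, 275 peaks became 128 regions with a median length of 130.5 nt, and 100 of the 128 were at least 100 nt long.

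Closely spaced peaks were of about the same width as single peaks, with a median of 56 nt (54 to 59) against 59 nt (57 to 60). They differed in their narrow tail. Peaks under 30 nt made up 10.8% of closely spaced peaks (68 of 632) and 2.93% of single peaks (78 of 2660), and peaks under 20 nt numbered 18 and 2. Among the 275 peaks next to a gap of 21 to 30 nt, 16.4% were under 30 nt, against 6.44% of the other 357 closely spaced peaks. At the wide end the shares were close, with 18.8% and 16.4% at 100 nt or more. In the 200 pairs the upstream peak was the wider one in 105 and the downstream peak in 94, with 1 tie. The wider peak was at least 2 times as wide as its partner in 71 pairs (35.5%). No test was made on widths, because the gap that chose the members is measured from the same peak edges.

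**Figure D2:**
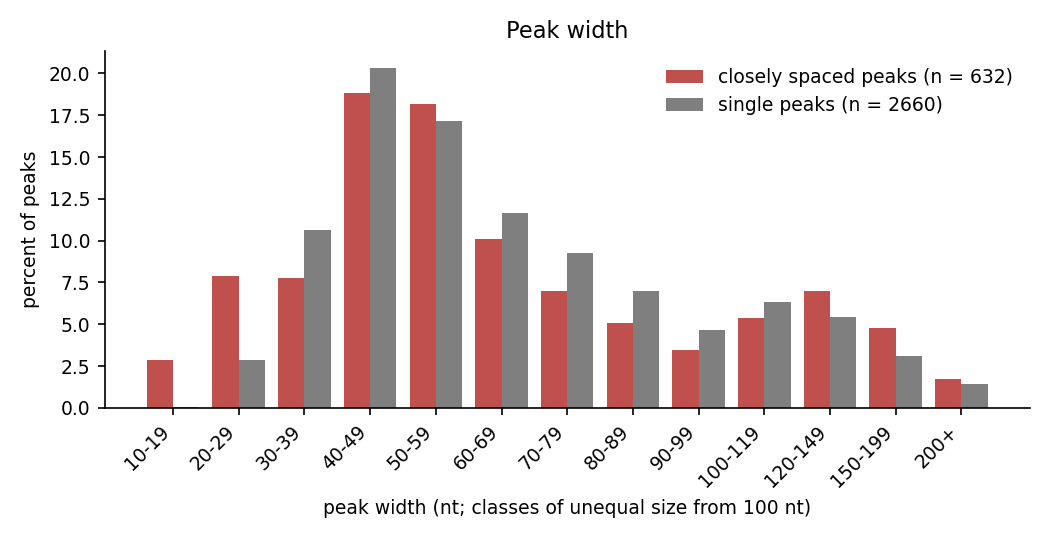
Percent of peaks (y axis) by peak width in nt (x axis, classes of unequal size from 100 nt), for 632 closely spaced peaks (red) and 2660 single peaks (grey). Peaks of 10 to 19 nt made up 2.85% of closely spaced and 0.0752% of single peaks, and those of 20 to 29 nt 7.91% and 2.86%.

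By kind of location the closely spaced peaks resembled the rest, apart from the mitochondrial genome. It held 3.64% of them and 0.226% of single peaks. Of the 632, 601 (95.1%, 93.1 to 96.6) lay by midpoint within exactly 1 protein-coding gene, against 93.9% (92.9 to 94.8) of single peaks. A further 12 lay where protein-coding genes overlap, 6 in noncoding genes and 13 in no annotated gene. All peaks of a group had the same kind of location, and within single protein-coding genes they were assigned to the same gene. For other groups, genes were read at the first peak in genome order only. The strand of the gene was known from RefSeq for 451 of the 601 peaks, and all 451 lay on it. For the rest it was not known, and genes were assigned without regard to strand. The rest includes a pair assigned to ND6, which lay on the strand opposite that gene, and may include other such peaks. Of 2013 single peaks with a known gene strand, 1989 lay on it and 24 on the opposite one. Across strands, only 1 pair of neighbouring peaks in the whole list was 200 nt or less apart, with a gap of 53 nt.

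Closely spaced peaks lay nearer the downstream end of genes than single peaks. Over the 578 that lay in 1 nuclear protein-coding gene, the median midpoint stood at 91.8% of the gene's length, read in the direction of the strand (90.0 to 92.7), against 80.8% (78.8 to 82.7) for 2492 single peaks. The last 10% of the span held 54.3% of them (50.2 to 58.4) against 38.6% (36.6 to 40.5), and the first 10% held 1.73% against 3.97%. Within 2000 nt of the downstream end lay 48.3% (44.1 to 52.4) against 33.1% (31.2 to 35.0), and the median distance to that end was 2067 nt against 4970 nt. With each of the 241 groups counted once, the median position was 91.8% (87.6 to 93.1) and 53.9% (47.4 to 60.4) lay in the last 10% of the span. Peaks in pairs and in groups of 3 or more had medians of 91.5% and 92.2%. Peaks next to a gap of 21 to 30 nt stood at 91.9% and the other closely spaced peaks at 91.2%, with overlapping intervals.

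**Figure D3:**
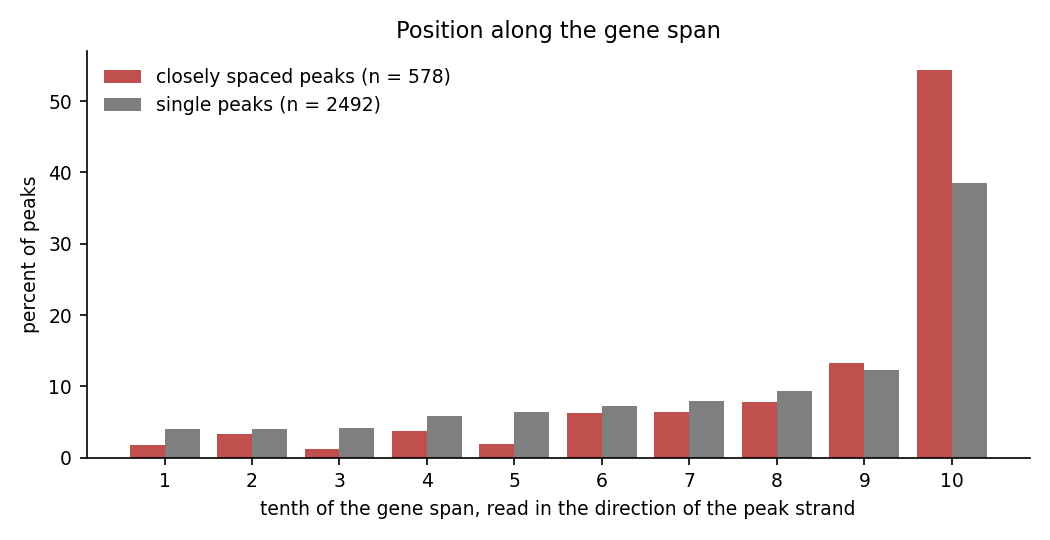
Percent of peaks (y axis) in each of 10 equal parts of the gene span (x axis, 1 upstream to 10 downstream), for 578 closely spaced peaks (red) and 2492 single peaks (grey) in exactly 1 nuclear protein-coding gene. Part 10 held 54.3% and 38.6%, and part 9 held 13.3% and 12.3%.

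Within genes that held both kinds of peak, the order varied from gene to gene. Of the 214 nuclear genes with a group, 143 also had a single peak. The closely spaced peaks lay on average farther downstream in 84 of them (58.7%, 50.2 to 66.9) and farther upstream in 59, with a median difference of 2.25 percentage points of the span. That value is a median over genes of differences between mean positions, so it cannot be set beside the medians over all peaks. In Sall1 the closely spaced peaks had a mean position of 83.7% and the single ones 41.1%, in Tet1 76.7% and 35.7%, and in Lamp2 73.2% and 23.6%. The order was the opposite in Fn1, the fibronectin gene, with 46.4% and 56.7%, in Tet2 with 71.3% and 91.3%, and in Akap1 with 59.2% and 82.7%. Single peaks that shared a gene with a group had a median position of 77.5% (73.3 to 83.7), and those that were alone in their gene 84.0% (82.4 to 86.8). The last 10% of the span held 34.1% of the former and 43.3% of the latter, against 54.3% of closely spaced peaks. A gene span contains introns, which lengthen distances away from the last exon, and their part in these values was not tested. No test was made of position, since the list has no value per library and its peaks share genes.

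The 601 closely spaced peaks in protein-coding genes fell in 220 genes, 36.1% of the 609 genes with at least 2 peaks. The share rose with the number of peaks a gene had. It was 17.3% (53 of 306) for genes with 2 peaks, 47.1% (97 of 206) for 3 or 4 peaks and 72.2% (70 of 97) for 5 or more. A gene with more peaks has more neighbours that can be close, so a rise is built into this comparison. In 73 genes every peak was closely spaced, and 53 of these genes had just 1 pair. Of the 220 genes, 20 held at least 2 separate groups. Nuclear genes with a group had a median span of 29286.5 nt, against 46301 nt for those with at least 2 peaks and no group. In the latter the closest neighbours were a median of 3026 nt apart. RNA abundance was not analysed here, so more peaks in a gene and more RNA of that gene cannot be told apart.

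**Figure D4:**
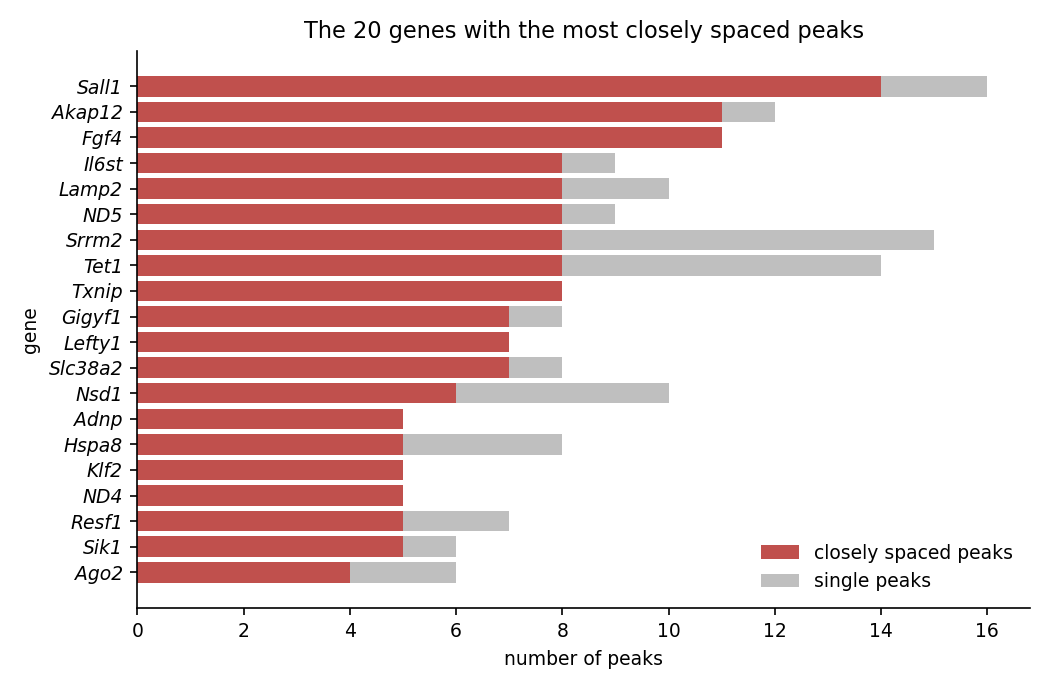
Number of peaks (x axis) in the 20 genes with the most closely spaced peaks (y axis), divided into closely spaced (red) and single peaks (light grey). Ties were broken by gene symbol. Fgf4, Txnip, Lefty1, Adnp, Klf2 and ND4 had no single peak, while Srrm2 had 8 closely spaced of 15 and Tet1 8 of 14.

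The longest group lay in Il6st, which encodes gp130, the signalling chain of the LIF receptor complex. Its 8 peaks spanned 1381 nt on chromosome 13 (112504066 to 112505446), with gaps of 122, 93, 49, 90, 35, 35 and 57 nt from upstream to downstream. The last midpoint of the group lay 1456.5 nt from the downstream end of the gene, and 1 single peak lay beyond it, 873 nt from the end. Lifr, the gene for the LIF receptor itself, held a group of 4 peaks on chromosome 15 (7194694 to 7195129) with gaps of 23, 42 and 27 nt. Both chains of the receptor through which these cells sense LIF thus had a group, at mean positions of 95.3% and 97.5% of the span. Each of these genes had 9 peaks, and of all genes with 5 or more peaks 72.2% (70 of 97) held a group.

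Txnip, which encodes the thioredoxin-interacting protein, also had 8 peaks in 1 group, all the peaks of this gene. They covered 70.1% of 837 nt on chromosome 3 (96561020 to 96561856), with gaps of 44, 29, 24, 35, 39, 58 and 21 nt, and the last midpoint lay 26.5 nt from the downstream end. Fgf4, the growth factor gene that drives embryonic stem cells toward differentiation, had all of its 11 peaks in 2 groups. The upstream one held 4 peaks with gaps of 25, 25 and 22 nt at a mean position of 44.3% on chromosome 7 (144862926 to 144863242). The downstream one held 7 peaks with gaps of 49, 52, 27, 27, 25 and 26 nt (144864661 to 144865241). Lefty1, a secreted inhibitor of Nodal signalling, had 7 peaks with gaps of 24, 29, 27, 45, 47 and 31 nt, which covered 63.0% of 548 nt. Lefty2 is similar in sequence, so how reads were divided between these genes is uncertain. The gaps of Fgf4 and Lefty1 were all under 60 nt, whereas those of Il6st reached 122 nt.

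**Figure D5:**
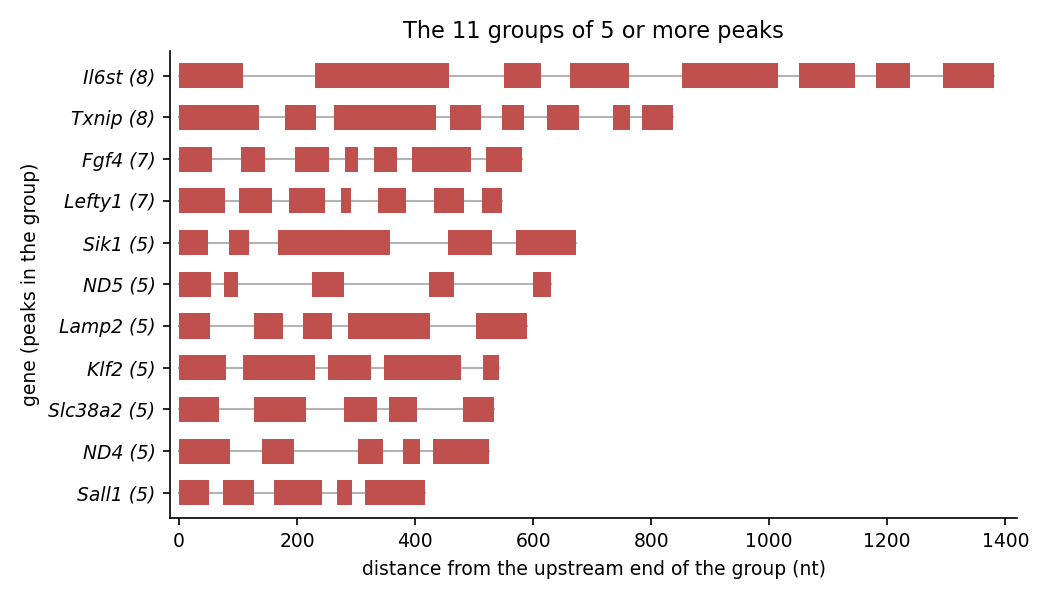
The 11 groups of 5 or more peaks, each drawn to scale from its upstream end (x axis, nt), with peaks as red boxes and gaps as grey lines. Genes are on the y axis with the number of peaks in the group. The Il6st group was the longest at 1381 nt, and the Sall1 group the shortest at 417 nt.

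The remaining groups of 5 peaks lay in genes of varied function. Klf2, a transcription factor gene of the naive pluripotent state, had the most continuous of the 11 large groups. Its 5 peaks covered 79.7% of 542 nt on chromosome 8 (72320745 to 72321286) with gaps of 28, 23, 22 and 37 nt. Sik1, a salt-inducible kinase gene, had gaps of 34, 48, 99 and 40 nt (chromosome 17, 31844590 to 31845261). Slc38a2, an amino acid transporter gene, had gaps of 59, 64, 21 and 78 nt (chromosome 15, 96687466 to 96687998). In Lamp2, a lysosomal membrane protein gene, the 5 peaks had gaps of 75, 34, 26 and 78 nt and lay in the interior of the gene, at least 20681 nt from its downstream end. A second Lamp2 group of 3 peaks had gaps of 24 and 31 nt and a mean position of 90.1%.

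Sall1 and Akap12 spread their peaks over the most groups, 5 each. Of the 16 peaks in Sall1, which encodes a zinc finger transcription factor, 14 were in groups. The largest of them held 5 peaks with gaps of 24, 34, 25 and 21 nt on chromosome 8 (89029967 to 89030383). From upstream to downstream the groups held 2, 2, 5, 3 and 2 peaks, and their mean positions were 66.1%, 76.1%, 82.6%, 92.4% and 98.8%. The shortest gap was 21 or 22 nt in 4 of the 5 groups, the exception being the most downstream one with 126 nt. Akap12 had 11 of 12 peaks in groups, 4 pairs and 1 group of 3, at mean positions from 96.0% to 99.8%. Its pairs had gaps of 23, 41, 142 and 60 nt, and the group of 3 had gaps of 21 and 122 nt.

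Srrm2, which encodes a scaffold of nuclear speckles, and Tet1, the gene of an enzyme that oxidises methylated cytosine, each had 8 peaks in 3 groups. In Srrm2 the largest group of 4 had gaps of 176, 22 and 22 nt, and the pairs on either side of it had gaps of 137 and 106 nt. In Tet1 the group of 4 lay far upstream of the end, at a mean position of 58.0% (chromosome 10, 62839194 to 62839559), with gaps of 67, 39 and 27 nt. A Tet1 pair of 368 and 117 nt, 25 nt apart, covered 95.1% of its 510 nt, the highest coverage of any group. Gigyf1, which encodes a partner of a translational repressor, had 7 of 8 peaks in a group of 4 with gaps of 153, 103 and 33 nt and a group of 3 with gaps of 28 and 27 nt. Foxp4, Akap1 and the methyltransferase gene Nsd1 held the other long groups, of 742, 707 and 687 nt.

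Gene lists were described by counts beside all genes with a peak, of which 36.1% of those with at least 2 peaks held a group and 19.4% of peaks were closely spaced. No test of these lists was made, and they were drawn up with earlier results of these data known. The counts were not matched for the number of peaks per gene, with which the share of genes with a group rises. In the pluripotency list 5 of 7 genes with at least 2 peaks held a group, and 25 of 43 peaks (58.1%) were closely spaced, 14 of them in Sall1. Besides Sall1 and Klf2 these were Esrrb, an orphan nuclear receptor gene, with a pair 27 nt apart, Tfcp2l1, a transcription factor gene, with a pair 26 nt apart, and Rif1, which encodes a telomere and replication factor, with a pair 41 nt apart. Esrrb, Tfcp2l1 and Rif1 thus had 1 group each, the smallest kind.

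In the signalling list 6 of 10 genes with at least 2 peaks held a group, and 34 of 64 peaks (53.1%) were closely spaced, most of them in Fgf4, Il6st and Lefty1. Ctnnb1, which encodes beta-catenin, had a pair of 340 and 108 nt with a gap of 146 nt. Spry2, an inhibitor of FGF signalling, had a pair 21 nt apart that held both of its peaks. In the cell cycle list 3 of 4 genes with at least 2 peaks held a group, and 8 of 17 peaks (47.1%) were closely spaced. Wee1, the kinase gene that restrains entry into mitosis, had 3 peaks with gaps of 35 and 114 nt. Arid4b, a chromatin regulator gene placed in this list, had gaps of 32 and 24 nt. Mycn, a growth-promoting transcription factor gene, had a pair 76 nt apart.

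In the chromatin list 6 of 15 genes with at least 2 peaks held a group, with 23 of 97 peaks (23.7%), which is close to the 19.4% of all genes. These were Tet1, Nsd1, Jarid2, Kdm5b, Mga and Tet2. Many peaks did not mean many close ones: Kdm5b and Mga had 11 peaks each and 1 pair each, 42 and 24 nt apart. Jarid2, which encodes a partner of Polycomb repressive complex 2, had 13 peaks, 3 of them in a group with gaps of 33 and 186 nt. In the matrix and adhesion list 2 of 6 genes with at least 2 peaks held a group, and 6 of 41 peaks (14.6%) were closely spaced. Fn1 had 23 peaks, the most of any gene, yet 4 closely spaced ones in pairs 29 and 93 nt apart, while Lamc1, a laminin chain gene, had 1 pair 59 nt apart.

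In the miRNA pathway list 1 of 7 genes with at least 2 peaks held a group, and 4 of 25 peaks (16%) were closely spaced. That gene was Ago2, with pairs 36 and 21 nt apart at mean positions of 64.8% and 56.3%. Tnrc6a had 6 peaks, Tnrc6b and Tnrc6c 3 each, and Ago1, Lin28a and Trim71 2 each, all of them single.

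Among genes grouped by name, ribosomal protein genes had 28 of 113 peaks (24.8%) closely spaced, in 12 of 33 genes with at least 2 peaks. Rps20 had 2 pairs, with gaps of 123 and 180 nt, Rpl14 a group of 3 with gaps of 27 and 86 nt, and Rpl10a, shown above, the least covered group of all, with 23.5% of 408 nt under its 3 peaks. The others were Rpl10, Rpl17, Rpl18, Rpl23, Rpl28, Rpl6, Rpl7, Rpl7a and Rps18. Ribosomal protein genes have many processed copies in the genome, so their read assignment is uncertain. Genes of translation factors (Eif and Eef) had 8 of 46 peaks closely spaced, as pairs in Eef1a1, Eef1g, Eif3a and Eif4b with gaps of 33, 26, 48 and 87 nt. The Zfp zinc finger genes had 12 of 68, in Zfp106, Zfp266, Zfp217, Zfp532 and Zfp990. Among Hnrnp, Srsf and Srrm genes Srrm2 held all 8 of 26, and among Ddx and Dhx genes the helicase gene Ddx3x held the only pair, 25 nt apart. These shares lay between 15.4% and 30.8%, on both sides of the 19.4% of all genes.

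Most peaks on mitochondrial transcripts had a close neighbour. Of 29 peaks on the mitochondrial genome 23 (79.3%, 60.3 to 92.0) were closely spaced, against 18.7% (17.3 to 20.0) of nuclear peaks. The mitochondrial genes with a peak spanned 519 to 1824 nt, against a median of 29286.5 nt for nuclear genes with a group. Several peaks within so short a span cannot lie far apart, so a higher share is built into this comparison. ND5, a gene for a subunit of respiratory complex I, had 8 of 9 peaks in groups, 1 of 3 peaks with gaps of 22 and 54 nt and 1 of 5 with gaps of 22, 126, 145 and 133 nt. ND4 had 5 peaks with gaps of 53, 109, 34 and 23 nt, and ND1 a group of 4 with gaps of 137, 60 and 22 nt. ND2, ND6 and CYTB had a pair each, 70, 27 and 27 nt apart, and COX1 had 1 single peak. Over the 7 mitochondrial genes with a peak, the number of peaks per 1000 nt of gene span ran from 0.647 in COX1, 2.62 in CYTB and 2.89 in ND2 to 4.93 in ND5 and 5.22 in ND1. All of these peaks lay on the plus strand, although ND6 is encoded on the other strand of the mitochondrial genome.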

How the data were processed

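Per the labels, AGO2-bound and input RNA of mouse embryonic stem cells was sequenced as single-end reads. The authors deposited raw counts per mature miRNA for 2 miRNA libraries, and 1 list of target peaks whose score column is 0. Bowtie2 2.4.2 and STAR 2.5.2a stand in the submitters' processing notes, beside deepTools 3.1.3, DESeq2 1.36.0, cutadapt 2.10, UMI-tools and the build mm10, with no stated roles. No source used here gives the method or threshold of peak calling or says whether the input was used, and another threshold would change gaps and counts.

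Gaps were counted as bases between facing edges of successive peaks on a strand. Chains of gaps of 200 nt or less formed groups. Peaks were assigned by midpoint to RefSeq gene spans of GRCm38.p6 (49997 genes), without regard to strand. Position was read along the peak strand, also where the strand of the gene was not known. Gene strand and sequences came from RefSeq windows around gene starts. Exact Clopper-Pearson intervals for shares and binomial order-statistic intervals for medians were at 95%. The grouping was tested on simulated data. No test between groups was made. Members and lists were chosen with earlier results of these data known. Named genes were those in groups of at least 5 peaks, with the most closely spaced peaks, at the 5 smallest gaps or the 5 gaps on each side of the limit, with ties taken by gene symbol, in the 5 longest groups, on the lists, or mitochondrial or noncoding. H3c11, Lefty2, Adnp, Tgif1 and the listed genes without a group were named after their values were seen. Python 3.11.15, numpy 2.4.6, pandas 2.3.3, scipy 1.17.1 and matplotlib 3.10.9 were used.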

Additional observations from a re-analysis of the deposited data

How the results depend on the processing

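The 10 summary values were recomputed under 9 alternatives, the last of which, leaving out the 10 genes with the most closely spaced peaks, was chosen after seeing the data. Of 90 values, 75 stayed within 1.5 times the count or within the interval of the share or median. Strand, merging of touching peaks (there were none) and restriction to 1 protein-coding gene moved none. The share of closely spaced peaks was 15.4%, 12.4% and 25.8% at gap limits of 100, 50 and 500 nt, and 16.2% with a midpoint distance of 200 nt. It was 16.5% without peaks under 30 nt and 17.0% without the 10 genes. The median gap under the same settings was 30, 27, 72, 32 and 43 nt, and with the 10 genes left out it stayed at 36 nt. At 50 nt the number of closely spaced peaks was 409 and the share of pairs 82.9%, and at 500 nt that share was 66.5%. Without peaks under 30 nt the median position of closely spaced peaks was 93.2%. Closely spaced peaks lay farther downstream than single peaks under all 9 alternatives. No paired analysis was possible because the peak list has no values per replicate, and for the same reason no library could be left out.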

Other observations

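Groups outside single protein-coding genes were few. Noncoding RNA genes held 3 pairs: Rian, from the imprinted Dlk1-Dio3 region, with a gap of 184 nt on chromosome 12 (109660748 to 109661114), Lncenc1, a long noncoding RNA gene of embryonic stem cells, with a gap of 23 nt on chromosome 13 (97496353 to 97496437), and Snhg1, a small nucleolar RNA host gene that overlaps another noncoding gene there, with a gap of 187 nt on chromosome 19 (8725094 to 8725406). Overlapping protein-coding genes held 5 groups. The largest had 3 peaks each and are named by the genes at their first peak in genome order. Where Cd247 and Pou2f1 overlap the gaps were 50 and 64 nt, and where Cog5 and Hbp1 overlap they were 23 and 49 nt. Both groups lay on the minus strand, but strand was not used to choose between overlapping genes. In no annotated gene lay 6 groups, the largest with 3 peaks and gaps of 166 and 100 nt on chromosome 17 (17523652 to 17524166).

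Among the nuclear chromosomes with at least 1 group, the share of closely spaced peaks ran from 10.4% on chromosome 14 to 30.6% on chromosome 17, where 53 of 173 peaks were closely spaced in 21 groups. Chromosome 17 carries Srrm2, Sik1, Foxp4 and Tgif1, each with a group of at least 4 peaks. Chromosomes were compared after the values were seen, without a test.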
